A study of Mus musculus with 42 samples.

Results

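Soleus was compared with quadriceps inside single adult C3KO mice. Of the 42 arrays of the series, 12 belong to this comparison: both muscles of the 6 C3KO mice Q2-1, Q2-2, Q2-3, Q2-4, U2-1 and U2-2, each taken from 1 animal, so that soleus minus quadriceps could be formed within every mouse. The C3KO mice are taken to lack calpain 3, a calcium-dependent protease found mainly in skeletal muscle and encoded by Capn3. The mice were males of 11 to 12 months, and the strain label, 129 SvEvBrd x C57BL/6 heterozygotes, is the same for knockouts and controls. The controls were 5 wild-type (wt) males of the same age range with both arrays (M2-2, W2-1, W2-3, X2-2 and X2-3), and a second comparison used 4 C3KO males of 2 to 3 months (J4-1, J4-2, H4-1 and H4-2). A further C3KO adult, U2-3, and a further wt adult, W2-2, have only a quadriceps array, and wt mouse M2-1 was left out because the labels of its arrays name different muscles. The labels give no treatment.

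Soleus is a postural muscle rich in slow, fatigue-resistant fibres that burn fat, whereas quadriceps is built mostly of fast fibres that rely on glycolysis. Each fibre type carries its own set of myosin heavy chains, light chains, troponins and calcium pumps, and calcium signals through calcineurin and calmodulin-dependent kinases (CaMK) are known to promote the slow program. Loss of calpain 3 causes a limb girdle muscular dystrophy, in which proximal limb muscles weaken. What these arrays measure is RNA of whole muscle, so fewer cells of a type and less RNA per cell cannot be told apart.

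The myosin heavy chain genes show the contrast between the muscles most directly, since each marks a fibre type, and the 250 bases in front of 4 of them are printed here for that reason. Myh7 encodes the slow chain, Myh2 the fast oxidative IIa chain, Myh1 the IIx chain and Myh4 the fast glycolytic IIb chain, and the last 3 are neighbours on chromosome 11. The sequences are RefSeq windows of build GRCm38.p6, each the first listed for its gene. Capitals mark the muscle motifs MCAT (CATTCC), the TATA box (TATAAA) and MEF2, searched on both strands, and a TATA box match lies inside each MEF2 match.
Myh7, chr14:54994627-54994876, minus strand: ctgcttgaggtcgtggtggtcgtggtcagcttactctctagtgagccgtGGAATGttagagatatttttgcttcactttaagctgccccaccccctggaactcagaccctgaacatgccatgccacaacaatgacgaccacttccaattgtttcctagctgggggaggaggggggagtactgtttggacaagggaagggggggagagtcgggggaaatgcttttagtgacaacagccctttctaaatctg
Myh2, chr11:67170777-67171026, plus strand: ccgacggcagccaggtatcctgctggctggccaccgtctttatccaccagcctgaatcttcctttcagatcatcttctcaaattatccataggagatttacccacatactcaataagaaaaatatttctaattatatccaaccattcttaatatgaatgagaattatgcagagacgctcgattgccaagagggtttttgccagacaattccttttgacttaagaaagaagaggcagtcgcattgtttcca
Myh1, chr11:67199852-67200101, plus strand: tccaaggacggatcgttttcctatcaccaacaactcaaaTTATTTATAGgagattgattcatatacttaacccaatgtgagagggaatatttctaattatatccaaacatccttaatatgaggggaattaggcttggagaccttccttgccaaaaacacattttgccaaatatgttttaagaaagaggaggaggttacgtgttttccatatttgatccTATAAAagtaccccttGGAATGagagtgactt
Myh4, chr11:67237562-67237811, plus strand: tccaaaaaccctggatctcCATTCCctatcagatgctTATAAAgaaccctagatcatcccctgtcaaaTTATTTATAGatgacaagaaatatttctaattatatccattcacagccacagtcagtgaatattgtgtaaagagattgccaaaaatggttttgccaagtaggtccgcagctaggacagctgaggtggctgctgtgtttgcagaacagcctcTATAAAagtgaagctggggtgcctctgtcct

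Myh4 held 1 MCAT, 3 TATA box and 1 MEF2 match, and Myh1 held 1, 2 and 1. Myh7 held 1 MCAT match and neither of the others, and none of the 3 motifs was found in the Myh2 window. Over 27025 genes with such a window, MCAT was present in 12.6%, the TATA box in 13%, MEF2 in 3.01% and the E-box (CANNTG) in 66%. Of the 11 slow sarcomere genes, all matched to a window, 11 held an E-box, 3 MCAT, 1 a TATA box and 1 MEF2. Among the 7 of 12 fast sarcomere genes with a window, 6 held an E-box, 5 MCAT, 3 a TATA box and 2 MEF2. These matches describe the letters in the windows and name no binding site.

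The 12 arrays had like distributions, with medians of 4.38 to 4.44 and highest values of 14.36 to 14.47 on the log2 scale, and pairs of arrays correlated across probe sets at 0.9256 to 0.9925. The targeted gene fitted the labels: Capn3 ran from 4.02 to 4.65 in quadriceps and from 4.10 to 4.93 in soleus of the knockouts, near the array medians, against 10.11 to 10.30 and 10.17 to 10.45 in wt adults. Array labels start with a code whose meaning they do not state. Mice Q2-1, Q2-2, Q2-3 and wt M2-2 carry 1-1 on both arrays, U2-1, U2-2 and the other wt adults carry 1-3 on both, and Q2-4 has quadriceps coded 1-1 and soleus coded 1-3. Of 10 liver markers, 5 (Alb, Fgb, Fga, Ahsg and Ambp) lay at or under the median on all 12 arrays, and of the 5 tested none was higher and 1 lower in soleus, Cyp2e1, with means of 7.99 in quadriceps and 6.89 in soleus. Of the muscle fibre markers, 8 of 8 were above the filter on dim probe sets.

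Soleus and quadriceps of the C3KO adults differed at 5800 of 12087 genes tested (48%) by limma at a Benjamini-Hochberg adjusted p under 0.05, and a gene that passed is called higher or lower in soleus below. The split was even, with 2880 genes higher (23.8%) and 2920 lower (24.2%), and the median difference over all genes was 0.000143. Past 2-fold lay 892 genes (7.38%), 437 of them higher and 455 lower. For 50 of these 892 the quadriceps value, and for 27 the soleus value, was at or under the array median in all 6 mice, so that their differences are lower bounds. Of the 5800 genes, 4960 differed in the same direction in all 6 mice. All 6 soleus values lay above all 6 quadriceps values for 1594 genes and below them for 1706, together 27.3% of the genes tested. Unless a count of mice is given, each gene named below as higher or lower had the same sign in 6 of 6 mice. Mice coded 1-1 alone gave 4753 genes in C3KO, and the fit of mice coded 1-3 gave 2491. That fit took 2 C3KO mice together with the wt mice of the same code, with a shared spread. It tested 11813 genes, and 40.8% of its 2491 genes were higher, so its list counts below are read against these shares.

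Every slow sarcomere gene was higher in soleus: 11 of 11 passed, against 23.8% over all genes, with a median difference of 3.73. Their soleus and quadriceps values did not overlap in any case, against 27.3% of all genes without overlap. Myh7, the slow myosin heavy chain, had quadriceps values of 6.79, 8.80 and 9.31 (lowest, median and highest of 6 mice) and soleus values of 13.63, 13.78 and 13.92. The difference was 5.42 ± 0.52, or 42.8-fold, with an adjusted p of 4.57e-07 by limma. Its error is the SE of the fit for 6 mice, with a spread shared with the 5 wt mice. Soleus was uniformly high in Myh7, whereas quadriceps spread over more than 2 log2 units, lowest in Q2-3 and highest in U2-2. Tnni1, the slow troponin I that holds the thin filament inhibited at rest, ran from 6.32 to 8.82 (median 7.91) in quadriceps and from 13.11 to 13.29 (median 13.20) in soleus, a difference of 5.43 ± 0.42 (43.2-fold, adjusted p 4.65e-08). Q2-3 was again the lowest quadriceps.

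The other slow troponins moved the same way. Tnnt1, the tropomyosin-binding subunit, differed by 4.79 ± 0.49, from 7.47 to 9.85 in quadriceps against 13.71 to 13.96 in soleus. Tnnc1, the calcium-binding subunit shared with the heart, differed by 4.52 ± 0.51, from 7.28 to 9.82 against 13.15 to 13.46. Neither overlapped between muscles. Tpm3, slow tropomyosin, differed by 4.34 ± 0.46 at its brightest probe set, while its 5 probe sets ran from 0.92 to 4.48. The ventricular light chains Myl2 and Myl3, which slow fibres share with the heart, differed by 3.73 ± 0.51 and 3.29 ± 0.39. Myoz2, a Z-disc binder of calcineurin, differed by 3.19 ± 0.32 and Lmod2, a thin filament length regulator, by 2.22 ± 0.23. Myh7b, an ancient slow-type heavy chain, went from 5.01 to 5.45 in quadriceps to 7.19 to 7.85 in soleus, 2.24 ± 0.13. The smallest was Mybpc1, slow myosin-binding protein C, at 1.19 ± 0.11, which was already 12.11 to 12.77 in quadriceps.

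**Figure D1:**
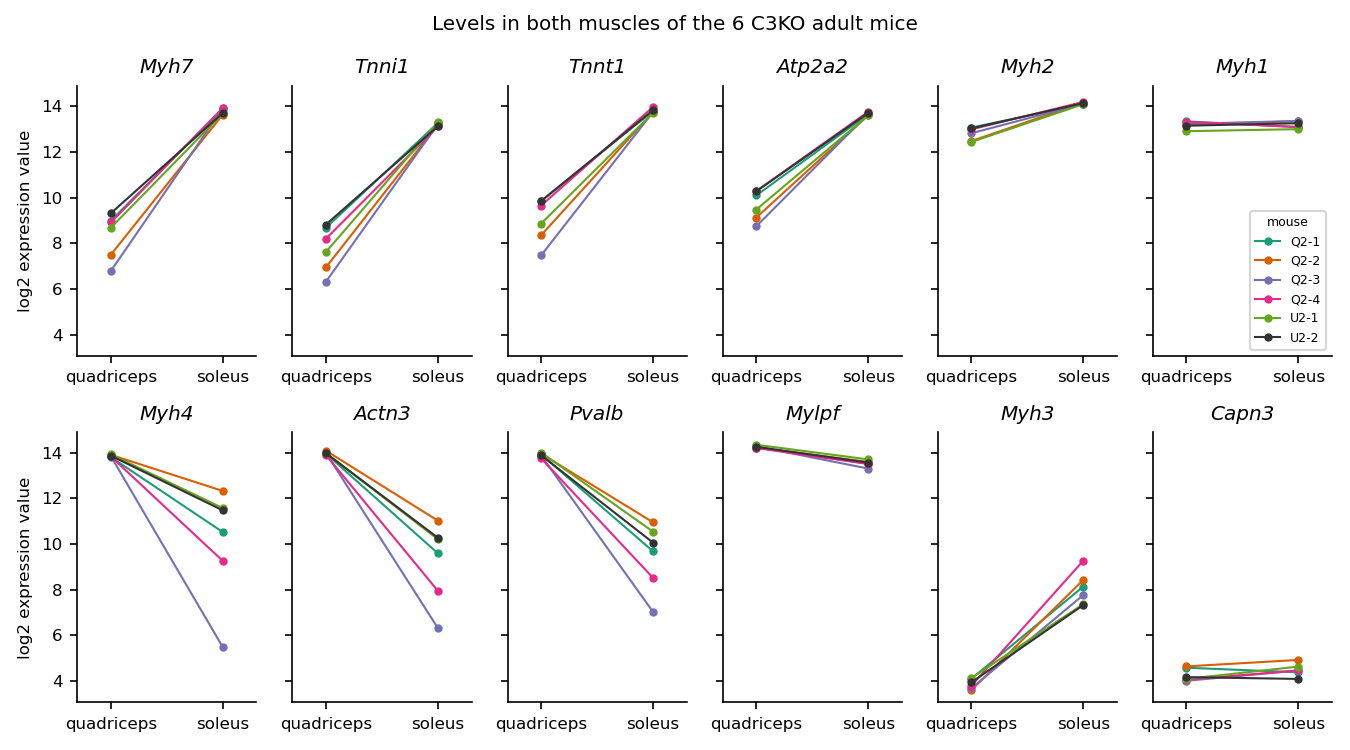
Log2 expression value of 12 genes in quadriceps and soleus, with 1 line per C3KO adult mouse. Myh7, Tnni1, Tnnt1 and Atp2a2 rise from spread quadriceps values to soleus values above 13, while Myh4, Actn3 and Pvalb fall from tight quadriceps values near 14 to soleus values that spread over several log2 units and are lowest in Q2-3.

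Fast sarcomere genes were lower in soleus for 10 of 12, against 24.2% over all genes, with a median of -0.54. The size of the fall divided them. Myh4, the IIb heavy chain, was 13.80, 13.85 and 13.92 (lowest, median, highest) in quadriceps and 5.49, 11.00 and 12.32 in soleus, a difference of -3.76 ± 0.73 (13.5-fold lower, adjusted p 0.000509). The 6 quadriceps values were nearly equal, and soleus went from a low value in Q2-3 to a bright one in Q2-2. Actn3, the Z-disc alpha-actinin of fast glycolytic fibres, fell from 13.89 to 14.08 in quadriceps to 6.32 to 11.02 in soleus, -4.75 ± 0.59 (26.9-fold lower). Mybpc2, fast myosin-binding protein C, differed by -4.44 ± 0.44 and again had its lowest soleus value, 6.56, in Q2-3. Mylk2, the kinase of the fast regulatory light chain, differed by -2.16 ± 0.12, and Myoz1, the fast partner of Myoz2, by -2.09 ± 0.11.

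The abundant fast subunits changed far less. Mylpf, the fast regulatory light chain, went from 14.20 to 14.34 in quadriceps to 13.30 to 13.70 in soleus, -0.73 ± 0.08. Myl1, Tnni2, Tpm1 and Tnnt3 differed by -0.36, -0.36, -0.35 and -0.32, with lowest soleus values of 13.86, 13.83, 13.79 and 13.70 and no overlap between muscles. Tnnc2, fast troponin C, missed the threshold at -0.14 ± 0.07 (adjusted p 0.0882), although it was lower in 6 of 6 mice. These 6 fast genes had a quadriceps mean over 14, and 3 slow genes had a soleus mean over 14, close to the highest value on any array. Whether the top of the scale limits their differences was not tested. Other probe sets of Tnni2 and Tpm1 gave differences down to -1.27 and -1.28, and Tpm1 also had 1 at 0.32. In the fit of mice coded 1-3, 5 of the 12 fast genes and 11 of the 11 slow genes passed in C3KO, against 2491 of 11813 over all genes.

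The 8 myosin heavy chains tested followed no single direction. Myh2, the IIa chain, was higher in soleus, from 12.43, 12.90 and 13.06 in quadriceps to 14.08, 14.12 and 14.18, a difference of 1.32 ± 0.16 (2.5-fold, adjusted p 7.19e-06), without overlap. Myh1, the IIx chain, was level, with 12.90 to 13.33 in quadriceps and 12.99 to 13.35 in soleus and a difference of 0.00 ± 0.11 (95% interval -0.23 to 0.23, adjusted p 0.98). Thus the neighbouring genes Myh2, Myh1 and Myh4, whose upstream windows are printed above, gave a higher, a level and a lower value in soleus. Myh3, the embryonic chain, was at or under the array median in all 6 quadriceps (3.61 to 4.14) and reached 7.33, 7.95 and 9.27 in soleus, so that 4.17 ± 0.24 (18-fold, adjusted p 1.75e-09) is a lower bound. Q2-4 was the highest soleus for Myh3 and U2-2 the lowest. Myh6, the atrial chain, behaved alike, with quadriceps at or under the median in 6 of 6 mice and soleus at 5.48 to 6.85 (2.61 ± 0.15, a lower bound). Myh8, the perinatal chain, was -0.56 ± 0.14, but soleus lay at or under the median in 6 mice and quadriceps in 5, so neither muscle gave a clear signal. Myh13 was not tested.

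The mean over the 11 slow genes minus the mean over the 12 fast genes puts each array at 1 place between the fibre types; its zero has no meaning, since probe sets of different genes differ in brightness, and only its change between arrays is read. In C3KO quadriceps it ran from -5.03 (Q2-3) to -3.57 (Q2-1), and in soleus from 0.47 (Q2-2) to 1.95 (Q2-3). Q2-3 thus had both the lowest quadriceps and the highest soleus, and was lowest in quadriceps for 6 of 11 slow genes and lowest in soleus for 6 of 12 fast genes. The spread between mice was larger in quadriceps for 10 of the 11 slow genes and larger in soleus for 11 of the 12 fast genes. In these genes the tighter muscle was the one with the higher level, and whether the top of the scale narrows its spread was not tested. Without Q2-3 the slow list had 11 of 11 genes higher and a median of 3.50.

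**Figure D2:**
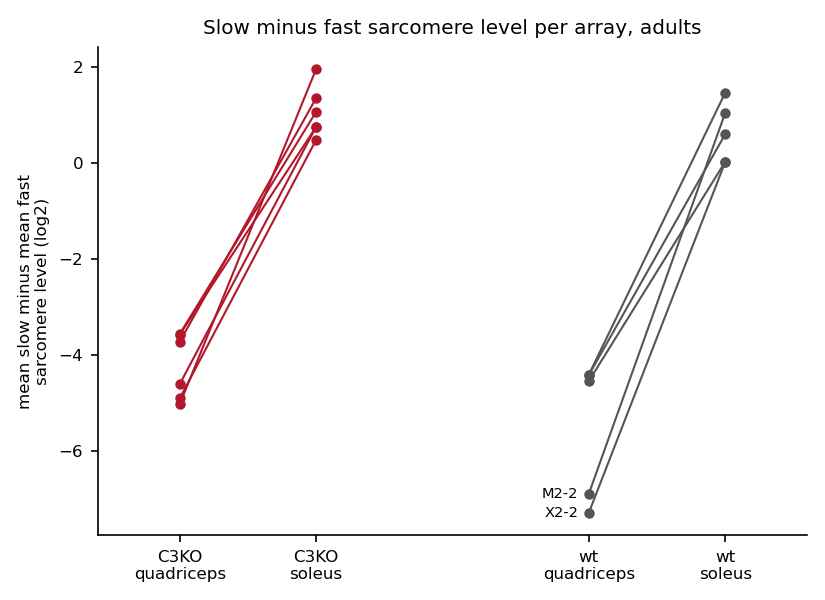
Mean log2 level of 11 slow sarcomere genes minus that of 12 fast sarcomere genes on each adult array, with a line joining the muscles of a mouse (6 C3KO in red, 5 wt in grey). Soleus lies above quadriceps in all 11 mice, and the wt quadriceps of M2-2 and X2-2, at -6.90 and -7.29, lie below every other array.

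Of 23 genes of calcium release and uptake, 6 were higher and 12 lower in soleus, against 23.8% and 24.2% over all genes. Atp2a2, the slow and cardiac calcium pump SERCA2, went from 8.74, 9.78 and 10.28 in quadriceps to 13.59, 13.64 and 13.75 in soleus, 3.99 ± 0.22 (15.9-fold, adjusted p 1.33e-09). Its 5 probe sets agreed in direction, from 3.02 to 4.68. The pump's inhibitors Sln (sarcolipin) and Pln (phospholamban) were 3.83 ± 0.36 and 2.97 ± 0.25 higher, and the cardiac calcium store Casq2 was 2.85 ± 0.19 higher. Pvalb, the soluble calcium buffer of fast fibres, fell from 13.75 to 14.00 in quadriceps to 7.03, 9.87 and 10.95 in soleus, -4.43 ± 0.44, lowest in Q2-3. The fast forms Atp2a1 and Casq1 were lower by less, -0.38 ± 0.08 and -1.02 ± 0.07. Triad genes that couple the surface membrane to calcium release were also lower: Cacng1 by -1.53 ± 0.09, Jph1 by -0.94 ± 0.09 and Jph2 by -0.94 ± 0.10, whereas the release channel Ryr1 stood at -0.10 ± 0.08 (adjusted p 0.309).

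CaMK signalling genes were mixed, with 3 of 15 higher and 5 lower, against 23.8% and 24.2% over all genes. Camk2a was 9.02 to 9.62 in quadriceps and 7.25 to 7.87 in soleus, -1.77 ± 0.13 (3.4-fold lower), but its probe sets ran from -2.62 to 0.20. Camk2g was lower by -0.86 ± 0.08 and did not overlap between muscles. Camk2b, a main isoform of skeletal muscle, stood at 0.06 ± 0.11 (adjusted p 0.71) and Camk2d at -0.18 ± 0.11 (adjusted p 0.196). Among 12 genes of the calcineurin pathway, 5 were higher and 4 lower. The feedback inhibitors Rcan1 and Rcan2, targets of that pathway, were 1.40 ± 0.11 and 1.73 ± 0.09 higher. The enzyme's own subunits were lower: Ppp3ca by -0.70 ± 0.09, Ppp3cb by -0.94 ± 0.09 and Ppp3r1 by -1.06 ± 0.09.

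Of 19 fibre type regulators, 10 were higher and 7 lower, against 23.8% and 24.2% over all genes. Maf, a transcription factor that promotes the IIb program, went from 9.61, 9.88 and 10.18 in quadriceps to 6.41, 6.70 and 7.22 in soleus, -3.16 ± 0.17 (8.92-fold lower, adjusted p 1.03e-09), with no overlap. Sox6, a repressor of slow genes, was lower by -1.28 ± 0.08, Rora by -1.32 ± 0.11, and Tbx15 and Eya1, factors of the fast glycolytic program, by -0.43 ± 0.08 and -0.40 ± 0.08. Esrrg, a nuclear receptor of oxidative fibres, was 2.57 ± 0.19 higher and Ppara, the fatty acid receptor, 2.00 ± 0.21. Ppargc1a, the coactivator PGC-1 alpha of mitochondrial genes, was 7.34 to 8.13 in quadriceps and 8.67 to 9.67 in soleus, 1.37 ± 0.24, and Ppargc1b was 1.02 ± 0.10 higher. Vgll2, a TEAD cofactor of slow muscle, was 1.71 ± 0.14 higher and Tead1, which binds MCAT elements, 0.77 ± 0.07. Slow-fibre regulator Prox1 was 0.68 ± 0.14 higher, while Ppard stood at -0.09 ± 0.08 (adjusted p 0.358).

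Metabolic genes divided by fuel. Of 24 genes of glycolysis and glycogen use, 18 were lower in soleus and 3 higher, with a median of -0.70. Over all genes 24.2% were lower and 23.8% higher. Those furthest apart were Pfkfb3 (-3.07 ± 0.19), which makes the activator of phosphofructokinase, the lactate exporter Slc16a3 (-2.88 ± 0.13), the glycerol phosphate shuttle enzymes Gpd1 (-2.85 ± 0.13) and Gpd2 (-2.12 ± 0.11) and the phosphorylase kinase subunit Phkg1 (-2.69 ± 0.11). Gpd1 ran from 9.94 to 10.79 in quadriceps and from 7.05 to 8.13 in soleus, so the muscles stood apart. The core enzymes Aldoa, Eno3 and Pgam2 fell by 0.51, 0.50 and 0.60. The 3 higher genes were glycogen synthase Gys1 (1.01 ± 0.11), the glycogen branching enzyme Gbe1 (1.53 ± 0.15) and hexokinase Hk2 (0.92 ± 0.11).

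Fatty acid genes were higher in soleus for 22 of 23, against 23.8% over all genes, with a median of 0.88. No overlap between muscles was seen for 19 of 23, against 27.3% over all genes. Hadha, of the mitochondrial trifunctional protein, was 1.31 ± 0.15 higher, Acadvl, the very long chain dehydrogenase, 1.10 ± 0.12, the fatty acid transporter Cd36 1.08 ± 0.12, and Cpt2 and Slc25a20 of the carnitine shuttle 1.08 ± 0.10 and 1.07 ± 0.09. The exception was the uncoupling protein Ucp3, at -0.52 ± 0.17 (adjusted p 0.0162). Citric acid cycle genes were higher for 10 of 17 and lower for none, led by Idh2, the NADP-linked isocitrate dehydrogenase, which went from 8.41, 9.51 and 10.05 to 11.57, 11.86 and 12.18 (2.46 ± 0.20, 5.5-fold), while the NAD-linked subunits Idh3a, Idh3b and Idh3g did not pass at -0.16, -0.10 and -0.02. Ldhb, the lactate dehydrogenase subunit of oxidative muscle, was 2.30 ± 0.22 higher and the lactate importer Slc16a1 1.26 ± 0.18, against -1.23 ± 0.08 for Ldha. Myoglobin (Mb) was 0.44 ± 0.10 higher.

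The respiratory chain moved little. Of 82 genes, 24 were higher and 9 lower, against 23.8% and 24.2% over all genes, and 49 did not pass. The median was 0.04 and none lay past 2-fold. In the fit of mice coded 1-3, 4 of these genes were higher and 0 lower in C3KO soleus. Over all genes 2491 of 11813 passed in that fit, 40.8% of them higher. The higher ones included the complex I subunits Ndufa10 (0.70 ± 0.10) and Ndufv1 (0.65 ± 0.08) and the cytochrome oxidase subunit Cox6a1 (0.59 ± 0.09). The 9 lower genes, Ndufa4, Ndufb2, Ndufb1, Ndufv2, Atp5mpl, Ndufa7, Ndufa3, Ndufc1 and Ndufa1, fell by 0.21 to 0.35.

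**Figure D3:**
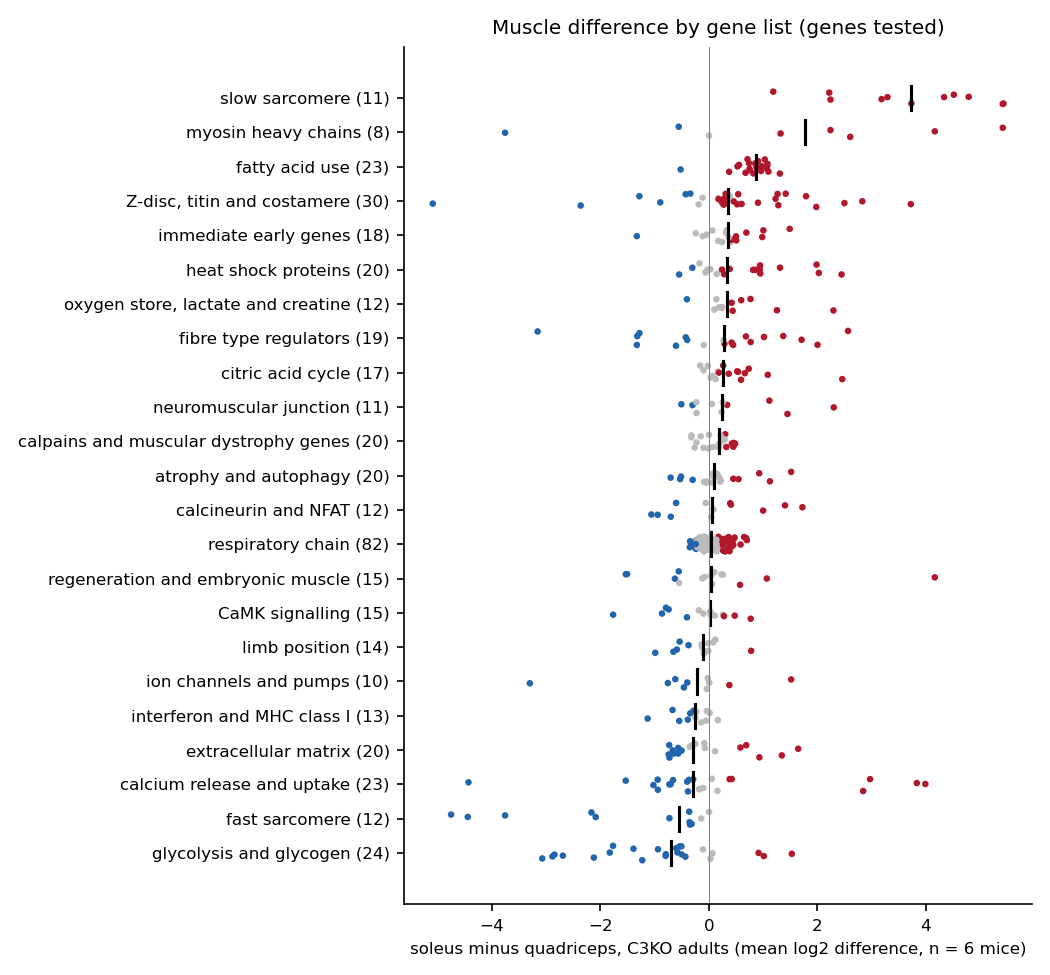
Soleus minus quadriceps log2 difference in C3KO adults for every tested gene of 23 lists, ordered by list median (black bar). Red points are higher and blue points lower at an adjusted p under 0.05, and grey points did not pass. The slow sarcomere list has a median of 3.73, the fatty acid list 0.88 and the glycolysis list -0.70, against 0.000143 over all genes.

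Structural genes of the Z-disc, titin and costamere were higher in soleus for 20 of 30 and lower for 6, against 23.8% and 24.2% over all genes. Myom3, the M-band protein of slow and intermediate fibres, went from 5.84, 6.87 and 7.22 to 10.15, 10.41 and 10.65, a difference of 3.72 ± 0.25 (13.2-fold). The mechanical stress sensors Csrp3 (muscle LIM protein) and Ankrd2 were 2.83 ± 0.34 and 2.50 ± 0.29 higher, alpha-actinin 2 (Actn2) 1.98 ± 0.16, the repair scaffold Xirp1 1.79 ± 0.22, filamin C (Flnc) 1.42 ± 0.15 and the chaperone partner Bag3 1.28 ± 0.15. Titin itself (Ttn) was 0.31 ± 0.08 higher. Ky, a Z-disc protease-like protein, was 8.62, 8.81 and 9.58 in quadriceps and 5.80, 6.67 and 7.26 in soleus, -2.36 ± 0.18 (5.14-fold lower). Mybph, a myosin-binding protein, was the lowest member, at -5.09 ± 0.22, a bound, since soleus was at or under the array median in 3 of 6 mice.

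Genes whose loss causes muscular dystrophy, together with the calpains, were close to level. Of 20 genes 6 were higher and none lower, against 23.8% and 24.2% over all genes. None lay past 2-fold (median 0.18). Capn3 itself stood at 0.23 ± 0.10 (adjusted p 0.0706), with quadriceps at or under the median in 4 mice and soleus in 2. Dmd (dystrophin) was 0.49 ± 0.09 higher in 5 of 6 mice at its brightest probe set, but the mean over its probe sets gave -0.15. Dag1 (dystroglycan) was 0.45 ± 0.09 higher and Utrn (utrophin) 0.46 ± 0.11. The other calpains did not pass: Capn1 stood at -0.32 ± 0.15 (adjusted p 0.0977) and Capn2 at 0.19 ± 0.10 (adjusted p 0.121).

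Heat shock genes were higher for 12 of 20 and lower for 2. The inducible chaperones Hspa1b and Hspa1a were 2.45 ± 0.21 and 1.99 ± 0.23 higher, the small heat shock protein Hspb7 2.03 ± 0.22, and Cryab, a guardian of desmin, 0.94 ± 0.07, whereas Dnaja1 and Hspe1 were lower by -0.55 and -0.30. Among 20 atrophy and autophagy genes 5 were higher and 4 lower, shares near those over all genes (23.8% and 24.2%), and the pair of muscle ubiquitin ligases went opposite ways, Fbxo32 at 1.13 ± 0.11 and Trim63 at -0.71 ± 0.09. Gabarapl1 and Bnip3, of autophagy, were 1.52 ± 0.15 and 0.93 ± 0.07 higher. At the neuromuscular junction 4 of 11 were higher and 2 lower, against 23.8% and 24.2% over all genes. The acetylcholine receptor subunit Chrna1 went from 6.12, 6.55 and 6.77 to 8.61, 8.76 and 9.08 (2.30 ± 0.09, 4.94-fold). Musk, the receptor kinase for agrin signals, was 1.45 ± 0.11 higher. Its coreceptor Lrp4 was 1.12 ± 0.14 higher, a lower bound, since quadriceps (3.73 to 4.26) lay under the array median in all mice. Acetylcholinesterase (Ache) was -0.51 ± 0.14 and overlapped between muscles.

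Of 15 genes of regeneration and embryonic muscle, 3 were higher and 4 lower, again shares near those over all genes. Myod1, the myogenic factor prevalent in fast muscle, was -1.51 ± 0.17 and Gadd45a, a growth arrest gene, -1.53 ± 0.16, while the neural cell adhesion gene Ncam1 was 1.07 ± 0.11 higher. The myogenic factors Myog and Myf5 and the fetal receptor subunit Chrng did not pass: Myog stood at 0.24 ± 0.11 (adjusted p 0.0896), Myf5 at 0.26 ± 0.12 (adjusted p 0.0868) and Chrng at 0.04 ± 0.10 (adjusted p 0.793). Among 10 ion channel and pump genes 2 were higher and 5 lower, against 23.8% and 24.2% over all genes. The genes of the sodium pump's beta subunits went opposite ways, with Atp1b1 at 1.52 ± 0.18 and Atp1b2 at -3.30 ± 0.19. The chloride channel Clcn1 was -0.76 ± 0.08. Of 18 immediate early genes 7 were higher and 1 lower, against the same shares over all genes. That 1 was Nr4a1, a nuclear receptor of glycolytic muscle, at -1.33 ± 0.17.

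The list of limb position genes, which keep a memory of where along the limb a tissue formed, had 1 of 14 higher and 5 lower. Over all genes the shares were 23.8% and 24.2%. Hoxc10 was 9.16 to 9.71 in quadriceps and 8.58 to 9.21 in soleus (-0.65 ± 0.09), and Hoxa9, Hoxc8 and Hoxa10 were lower by -0.54, -0.59 and -0.37, the last in 4 of 6 mice. Shox2, a patterning factor of the proximal limb, was -0.99 ± 0.15. Tbx4, a factor of the hindlimb, was 0.78 ± 0.13 higher, though all 6 quadriceps and 1 soleus lay at or under the median. Pitx1, which directs hindlimb identity, stood at -0.01 ± 0.09 and was close to background in both muscles.

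Among all genes, the largest mean difference upwards was that of Tecrl, an endoplasmic reticulum protein of heart and slow muscle. Its quadriceps values of 2.75, 3.15 and 3.41 were at or under the array median in all 6 mice, and soleus reached 7.29, 9.18 and 9.30, so that 5.71 ± 0.20 (52.3-fold, adjusted p 1.91e-11) is a lower bound. Outside the gene lists Cyfip2, of the WAVE complex that drives actin assembly, followed at 4.82 ± 0.13 and Lgi1, a secreted protein best known from neurons, at 4.41 ± 0.12, both with tight values in soleus (8.74 to 9.47 and 8.61 to 9.10). Quadriceps lay at or under the array median in 4 of 6 mice for Cyfip2 and in 3 of 6 for Lgi1, so both differences are lower bounds. Ift81, a transport protein of cilia, went from 4.73 to 5.79 in quadriceps to 9.23 to 9.82 in soleus (4.13 ± 0.17). Dusp18, a phosphatase, Mamdc2, an extracellular matrix protein, and Nlrc3, a regulator of innate immunity, differed by 3.96, 3.92 and 3.85, the last with quadriceps at or under the median in 6 of 6 mice and so as a lower bound. None of these overlapped between muscles.

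The largest difference downwards was Tspan8, a tetraspanin of the cell surface, with 9.65, 10.05 and 10.21 in quadriceps and 3.37, 4.05 and 5.05 in soleus, -5.91 ± 0.30 (60-fold lower, adjusted p 5.57e-10). Soleus was at or under the array median in 5 of 6 mice, so that the difference is a bound, and its 4 probe sets ran from -5.91 to -1.07. Pla2g7, a lipid hydrolase also made by macrophages, was -4.33 ± 0.17, and Mss51, a mitochondrial protein of glycolytic muscle, -4.20 ± 0.65 with its lowest soleus value, 4.11, in Q2-3. Prkag3, the AMP kinase subunit of glycolytic fibres, was -3.94 ± 0.23, the muscle kinase Mylk4 -3.90 ± 0.25, the mitochondrial protein Gdap1 -3.99 ± 0.25, the Wnt modulator Dkk3 -3.90 ± 0.20 and the phospholipase Plcd4 -3.87 ± 0.17. Soleus was at or under the median in 3 of 6 mice for Dkk3, 2 for Gdap1 and 1 for Mss51. Fgfbp1, which releases growth factors from matrix, went from 6.57 to 8.21 to values at or under the median in all 6 soleus arrays, so that -3.64 ± 0.20 is a bound. Ighm, an immunoglobulin heavy chain, was -5.07 ± 0.24, from 9.44 to 11.07 in quadriceps and 4.48 to 6.05 in soleus. Its 5 probe sets ran from -5.07 to 0.14, and of the B and T cell genes Cd79a, Cd79b and Cd3g were at or under the median on all 12 arrays, while Cd3e had a mean of 5.19 in both muscles and did not pass (adjusted p 0.98).

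Markers of other cells in the tissue moved with the muscle as well. Their counts stand against 23.8% higher and 24.2% lower over all genes. Of 12 macrophage markers 12 were lower in soleus (median -0.90), among them Cd163 (-1.33 ± 0.16), a receptor of resident macrophages, C1qc (-1.08 ± 0.16) and Adgre1 (-0.79 ± 0.11), and their mean level was 6.29 to 7.07 in quadriceps and 5.69 to 6.30 in soleus. Fibroblast markers were lower for 6 of 6 (median -0.74, mean level 9.29 to 9.96 against 8.51 to 9.01). Adipocyte markers were lower for 4 of 5 (median -1.48), with Adipoq, Retn, Lep and Cidec at -1.40, -1.48, -1.64 and -1.58 (Retn in 6 of 6 mice, the others in 5 of 6) and a mean level of 8.31 to 9.52 in quadriceps and 6.83 to 8.47 in soleus. In Q2-4 the median of the adipocyte markers was 0.20, against -2.18 to -1.06 in the other 5 mice. Endothelial markers were higher for 9 of 10 (median 0.61; 6.56 to 7.11 against 7.23 to 7.77), led by Kdr, the VEGF receptor, at 1.15 ± 0.17, and smooth muscle and pericyte markers for 6 of 6 (median 0.61). In C3KO the fit of mice coded 1-3, in which 2491 of 11813 genes passed, gave 3 of 10 and 0 of 6 for these lists (medians 0.36 and 0.48). It gave 11 of 12 for macrophages and 5 of 6 for fibroblasts.

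Extracellular matrix and interferon genes differed beside these markers, and the part of the cell types in their differences was not tested. Of 20 matrix genes 5 were higher and 8 lower, against 23.8% and 24.2% over all genes, so the share of higher genes was near that over all genes. The lower ones were the collagens Col1a1, Col1a2, Col3a1, Col5a1, Col6a1, Col6a2 and Col6a3 and the crosslinking enzyme Lox. They fell by 0.50 to 0.74 (Col1a1 and Col5a1 in 5 of 6 mice). The 5 higher genes were Ccn2 (1.65 ± 0.18), a mediator of fibrosis, Postn (1.35 ± 0.15), Timp1 (0.93 ± 0.14), Thbs1 (0.69 ± 0.18) and Bgn (0.58 ± 0.13). Timp1, an inhibitor of matrix proteases, was 3.75 to 4.57 in quadriceps and 4.47 to 6.16 in soleus and overlapped. Its quadriceps values were under the array median in most mice, so that its size is not exact. Of 13 interferon and MHC class I genes 6 were lower and none higher, with Ifit3 at -1.13 ± 0.12 and the antigen-presenting genes H2-K1 and B2m at -0.67 ± 0.10 and -0.39 ± 0.09. In the fit of mice coded 1-3, 3 matrix genes were higher and 10 lower in C3KO soleus. Over all genes 2491 of 11813 passed in that fit, 40.8% of them higher.

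In wt adults the same fit gave 5038 genes (41.7%), fitted beside the knockouts with a shared spread. Of these, 4194 also passed in C3KO adults, which is 72.3% of the C3KO genes and 83.2% of the wt genes, and all 4194 had the same sign. The 1 wt mouse coded 1-1 alone, with the spread taken from the C3KO mice of that code, gave 2843. Across the 12087 genes, which are not independent, the differences of both genotypes correlated at 0.946, with a slope of 0.937 for wt on C3KO.

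The genotype effect on the muscle difference, tested directly as the C3KO mean minus the wt mean, passed for 1 gene of 12087 (0.00827%) and had an unadjusted p under 0.05 for 872. That gene was Cpeb2, which binds the tails of messenger RNAs and controls their translation. Its muscle difference was -0.94, -0.82, -0.80, -0.62, -0.94 and -0.39 in Q2-1, Q2-2, Q2-3, Q2-4, U2-1 and U2-2, and -1.78, -1.72, -1.57, -1.48 and -1.83 in M2-2, W2-1, W2-3, X2-2 and X2-3. All 6 knockouts lay above all 5 wt mice, by 0.92 on average (adjusted p 0.0341). Quadriceps of the knockouts was at 5.68 to 6.69 against 7.10 to 7.72 in wt, without overlap, while soleus overlapped at 5.22 to 5.97 and 5.27 to 6.23. The call was lost when any C3KO mouse was left out (adjusted p 0.0574 to 0.14) and without wt M2-2, W2-1, W2-3 or X2-3 (0.0561 to 0.144), and it was kept without X2-2 (0.0471). Without W2-1 another gene passed in its place. Over all alternatives the adjusted p of Cpeb2 ran from 0.000669 to 0.852, and within the codes the difference was 0.92 (1-1) and 0.99 (1-3).

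Next in order of p stood Gbp6, Tiparp, Nmb and Dennd2c, none of which passed. Gbp6, an interferon-induced GTPase, had muscle differences of 2.88, 3.06 and 3.39 (lowest, median, highest) in the knockouts and 2.50, 2.45, 1.97, 2.22 and 1.81 in M2-2, W2-1, W2-3, X2-2 and X2-3, without overlap, a contrast of 0.91 with an adjusted p of 0.0877. Nmb, the peptide neuromedin B, had differences of -1.79 to -0.68 in the knockouts and -0.33 to 0.59 in wt (contrast -1.06, adjusted p 0.285). Tiparp and Dennd2c gave 0.73 and 0.90 at the same adjusted p. Chrna1 and Musk, higher in soleus of both genotypes, had contrasts of 0.55 with unadjusted p of 0.000588 and 0.0047. Myh3 differed by 2.98 in wt against 4.17 in the knockouts (1.19, unadjusted p 0.00392) and Ky by -1.50 against -2.36 (-0.86, unadjusted p 0.0055). None of these passed the adjustment over all genes.

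**Figure D4:**
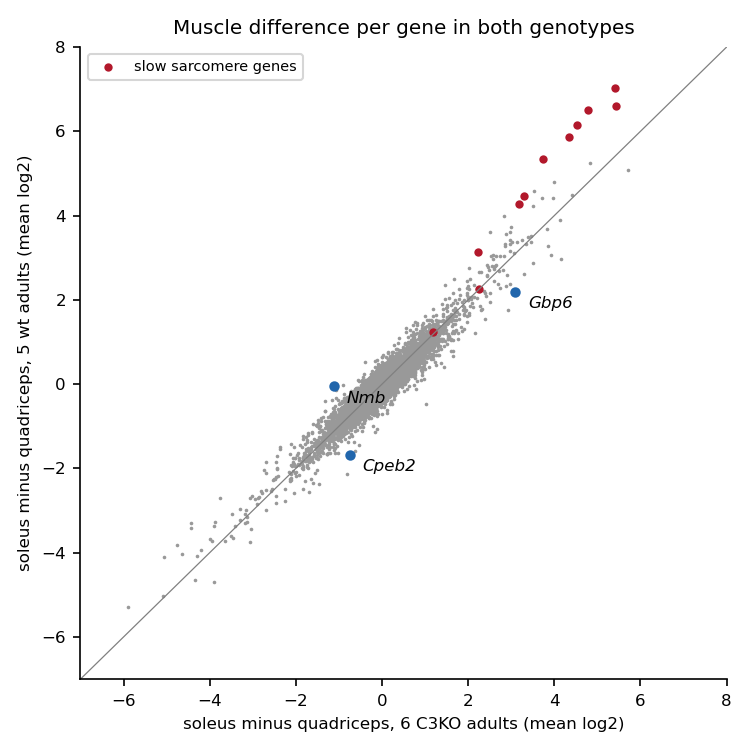
Soleus minus quadriceps log2 difference of each of 12087 genes in 6 C3KO adults (x axis) and 5 wt adults (y axis), with the line of equality. Red points are slow sarcomere genes, most of which lie above the line; the blue points are Cpeb2, which passed the test of the genotype effect, and Gbp6 and Nmb, which did not.

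The slow sarcomere list had a median of 5.35 in wt against 3.73 in the knockouts. Of its 11 genes 6 had an unadjusted p under 0.05 in the genotype contrast, against 872 of 12087 over all genes, and 0 passed the adjustment. The 11 genes are not independent of one another. Per mouse, the list's median difference was 2.68, 4.32, 4.91, 3.17, 4.34 and 2.99 in Q2-1, Q2-2, Q2-3, Q2-4, U2-1 and U2-2. In wt it was 3.92, 3.64 and 3.67 in W2-1, W2-3 and X2-3, inside the range of the knockouts, and 7.40 and 8.01 in M2-2 and X2-2. Quadriceps Myh7 was at 3.80 and 4.75 in M2-2 and X2-2, while the other wt quadriceps ran from 7.93 to 8.52 and the C3KO quadriceps from 6.79 to 9.31.

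In the young C3KO mice the soleus array of H4-2 stood apart. It is the only array of the series coded 1-4, while the other young C3KO arrays carry 1-3. No young C3KO array carries 1-1, the code of 7 of the 12 adult C3KO arrays, so outside code 1-3 age and code cannot be told apart. On the soleus array of H4-2 Myh3 was at 2.90 and Gbp6 at 7.32, against 5.43 to 6.88 and 9.51 to 10.22 in the soleus of the other young mice. The muscle difference depended on age for 15 of 12027 genes (0.125%) at an adjusted p under 0.05 by limma, 12 with a larger and 3 with a smaller value in adults, and for 18 without H4-2, of which 12 were shared. Tiparp, Ddit4l and Ubxn1 lost their call without it (adjusted p 0.0845, 0.0845 and 0.0551). The unadjusted p was under 0.05 for 1558. All 15 had no overlap between the 6 adults and the 4 young mice, but these same mice selected the genes. The share of all genes without overlap between ages was not counted. Among the 2 adults and 3 young mice coded 1-3 the direction and lack of overlap held for all 15. Both follow from the full set and are no further check. In a fit of these mice, chosen after seeing the data, 2 genes passed, 1 of them among the 15. There 5 effects were smaller by over 1.5 times than over all mice, those of Ndrg4 (1.74), Amph (1.59), P3h2 (1.17), Mamdc2 (1.19) and Ddit4l (-0.69). The count rested on single mice: it was 0 without Q2-1, Q2-2, H4-1 or J4-1, 1 without U2-1, 4 without Q2-3 or Q2-4 and 6 without J4-2. It was also 0 when the actin signal ratio of 3′ to 5′ probe sets, which reflects RNA integrity, entered the fit. In that fit Ndrg4, Actc1 and Amph had effects of 2.87, 2.74 and 2.53, against 2.93, 2.52 and 2.48 without the ratio. P3h2, Ikbip and Tiparp had 1.59, 1.05 and 0.755, against 1.90, 1.32 and 0.96. Adjusted p values of these genes by limma ran from 0.11 to 0.381 with the ratio. Of the slow sarcomere genes 0 of 11 passed with age by limma (0 at an unadjusted p under 0.05; median -0.29, or -0.97 without H4-2), and of the fast genes 0 of 12 (4 at an unadjusted p under 0.05; median -0.22).

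Ndrg4, a gene of the NDRG family expressed in heart and brain, had muscle differences of 1.55, 3.88 and 4.38 in adults (lowest, median, highest) and 0.93, 0.85, 0.19 and 0.28 in J4-2, J4-1, H4-1 and H4-2. The age effect was 2.93 ± 0.45 (adjusted p 0.0334 by limma, and 2.84 without H4-2). Means differed more in soleus, at 8.63 in adults and 6.23 in young mice, than in quadriceps, at 5.13 and 5.67. Age was not tested within a single muscle. Actc1, cardiac alpha-actin, which developing skeletal muscle also makes, gave -1.26, -0.68 and 0.02 in adults against -3.87, -3.44, -3.02 and -2.26 in J4-2, J4-1, H4-1 and H4-2. Here the age effect was 2.52 ± 0.31 (adjusted p 0.0168 by limma, and 2.82 without H4-2). Means differed more in quadriceps, at 10.28 in adults and 12.25 in young mice, than in soleus, at 9.65 and 9.11. Amph, an amphiphysin that bends membranes, had an age effect of 2.48, with soleus means of 3.52 in young and 5.91 in adult mice and quadriceps near background at both ages, so that its size is not exact. Without H4-2 it was 2.28.

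P3h2, a collagen prolyl hydroxylase, Mamdc2 and Nckap5 followed with age effects of 1.90, 1.85 and 1.70, with soleus means of 8.15, 8.70 and 5.56 in adults and 6.45, 7.06 and 3.87 in young mice. For Nckap5 quadriceps at both ages (means 3.28 and 3.29) and young soleus were near background, so that its size is not exact. Without H4-2 the effects of P3h2, Mamdc2 and Nckap5 were 1.58, 1.64 and 1.46. Mamdc2, among the genes most enriched in adult soleus, was at 3.92 in adults and 2.08 in young mice. Smaller effects were those of Ikbip (1.32), Tiparp (0.96), Tulp3 (0.94) and Arl2bp (0.83), which were 1.26, 0.90, 0.93 and 0.72 without H4-2, and Ikbip, Tiparp and Arl2bp were negative in all 4 young mice. The 3 genes with a smaller value in adults were Aldh1a1 (-1.33), which makes retinoic acid, Tmem37 (-1.18), a membrane protein, and Ddit4l (-1.05), an inhibitor of mTOR signalling, at -1.06, -1.23 and -0.99 without H4-2. Aldh1a1 differed by -1.19 to -0.84 in adults and by -0.18, 0.11, 0.13 and 1.10 in H4-1, J4-1, J4-2 and H4-2. Appbp2 (0.72) and Ubxn1 (0.66) complete the 15 and are named after their values were seen, and were 0.65 and 0.68 without H4-2.

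**Figure D5:**
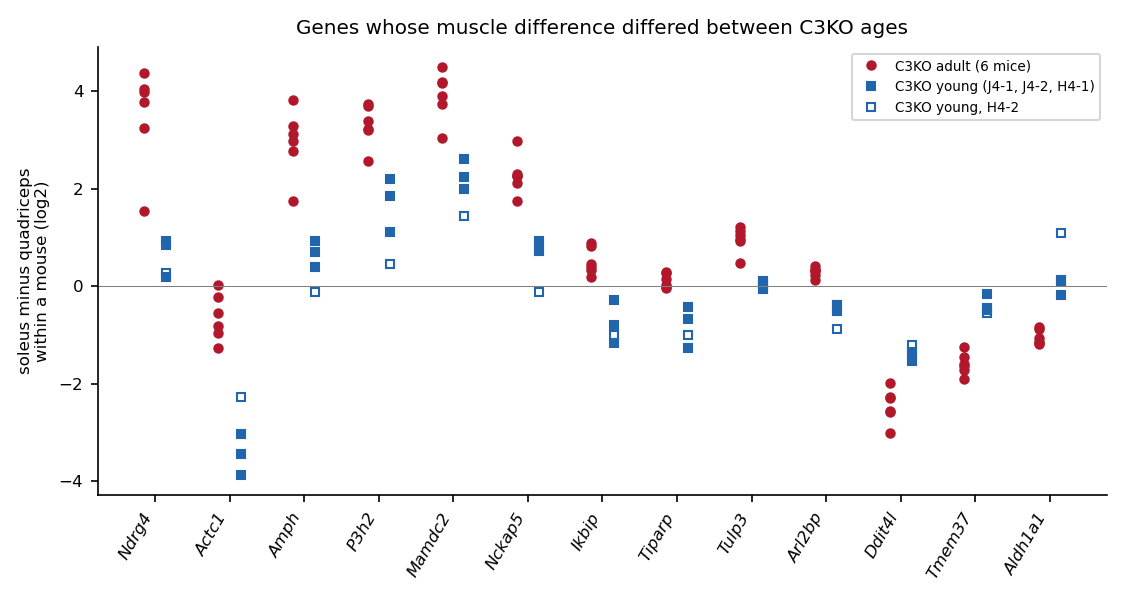
Soleus minus quadriceps log2 difference within each C3KO mouse for 13 genes whose muscle difference depended on age: 6 adults (red circles) and 4 young mice (blue squares, H4-2 open). Adults and young mice do not overlap for any of the 13 genes, which were selected by the age test on these same mice.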

How the data were processed

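RNA of whole muscle was hybridised to 1-colour Affymetrix arrays, 1 per muscle, from Trizol total RNA per the labels' protocols. The values are log2 expression values deposited by the authors as 1 table. Per the submitters' processing notes the tools were MAS5 and RMA, with no role or version, so how background was corrected and probes summarised is unknown here. No further normalization was applied, and 2 columns (M2-1) were not used.

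Of 45101 probe sets, 64 controls were left out, 34945 had 1 gene symbol, 932 several and 9160 none, and 34741 of those with 1 symbol (99.4%) were named through RefSeq GRCm38.p6, giving 18193 genes. Probe sets had to exceed the median of their array on 4 or more fitted arrays, and the brightest represented its gene. Soleus minus quadriceps differences within each of 11 adult mice were fitted with limma 3.58.1 in R 4.3.3 (statmod 1.5.0 for random blocks), with 1 mean per genotype and a shared spread. The age contrast used the 10 C3KO mice. Adjusted p values are two-sided, by Benjamini-Hochberg over all genes tested, at a threshold of 0.05. Errors after ± are standard errors of these fits with their shared spread, and the number of arrays limits the precision. Pairing is by animal per the labels, and the deviations of both muscles of a C3KO mouse from their group means correlated at 0.156 to 0.376. In wt adults the correlation ran from -0.156 to 0.223. The soleus that best matched a quadriceps was the mouse's own in Q2-1, Q2-2, Q2-4 and W2-1 and not in the other adults.

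The mice, gene lists and tests were chosen with earlier results of these data known. By rule, the text names Capn3, the 15 largest differences each way that passed with 1 sign in 6 mice, all sarcomere, myosin and limb position genes, selected calcium and CaMK genes, Ky, Ppargc1a, the 4 smallest p values of every other list and the leading genes of the contrasts. Other list members and markers, and Appbp2 and Ubxn1, are named after their values were seen.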

Additional observations from a re-analysis of the deposited data

Results flagged for a closer look

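Among 156 named genes, the muscle difference of 1 C3KO adult lay far from the other 5 for 7 genes (4.49%), where chance gives about 1 in 20. These were Fgfbp1 in U2-2 (-2.56), Ogdh in U2-2 (0.41), Dlst in U2-2 (0.26), Mylpf in Q2-3 (-0.97), Mylk2 in Q2-4 (-1.41), Myh8 in Q2-2 (-1.22) and Ncam1 in Q2-2 (1.60). By mouse they fell 3 times on U2-2, 2 times on Q2-2 and once each on Q2-3 and Q2-4.

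Cpeb2 was lower in soleus in both genotypes and less so in C3KO adults: by the test of that difference, C3KO minus wt was 0.92.

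In C3KO mice the muscle difference differed between ages by the same kind of test for Ndrg4 (2.93), Actc1 (2.52), Amph (2.48), P3h2 (1.90), Mamdc2 (1.85), Nckap5 (1.70), Ikbip (1.32), Tiparp (0.96), Tulp3 (0.94) and Arl2bp (0.83), adult minus young, and for Aldh1a1 (-1.33), Tmem37 (-1.18) and Ddit4l (-1.05).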

How the results depend on the processing

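The number of genes that passed between soleus and quadriceps in C3KO adults (5800) ran from 4753 to 6097 over the alternatives. The exception was the fit of mice coded 1-3 (2491). With 1 mouse left out the number ran from 5237 to 6036. Past 2-fold it ran from 790 to 989. In wt it was 2843 with the mouse coded 1-1 alone and 4171 to 5164 with 1 mouse left out. Without the pairing, that is with no block for the mouse, 5658 genes passed in C3KO, 4914 in wt, 889 past 2-fold, 0 in the genotype contrast and 12 with age. The genotype contrast also gave 0 with the mouse as a random block, all 19 mice, quantile normalization, eBayes with trend and robust, and within either code, and 0 to 1 with 1 mouse left out. The age contrast gave 24 genes with all 19 mice, 7 with no filter, 9 with quantile normalization, 0 with the actin covariate, 2 within code 1-3 (an alternative chosen after seeing the data) and 0 to 22 with 1 mouse left out. Of 142 named genes that passed in C3KO adults, 117 kept their call under every alternative run and 25 lost it at least once. With the mean of all kept probe sets, Dmd turned to -0.153 and Tiparp to -0.284, where other probe sets of these genes enter by construction. Genes at or under an array's median have no reliable level.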

Other observations

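Marker lists that belong to no comparison above were small or mixed. Of 8 tendon markers 2 were higher in soleus, Tnmd and Scx (1.02 and 0.48), and 2 lower, Kera and Thbs4 (-1.52 and -0.43). Both shares were near those over all genes (23.8% higher and 24.2% lower). Among Schwann cell markers 1 of 5 was higher and 1 lower, and among neutrophil and mast cell markers 1 of 5 was lower. The 3 cartilage and bone markers and the 2 keratinocyte markers had medians of -0.03 and -0.00426 and did not pass. Cidea, a lipid droplet gene of brown adipocytes, was 2.89 higher in soleus of C3KO adults and 3.57 higher in wt, while Ucp1 and Elovl3, other genes of that cell type, were too dim to be tested.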
